A study of Mus musculus with 2 samples.

Results

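Amino acid transporters are the membrane proteins that carry amino acids, and a few related small molecules, into and out of the cell and across lysosomal membranes. The genes described here are the members of the solute carrier families SLC1, SLC3, SLC6, SLC7, SLC36, SLC38 and SLC43 found by their symbols in the expression values of C2C12 cells, with Slc7a11 left out by the rule of choice. The rule found 60 of 21829 genes and used no measured value. It follows family names rather than substrates, so it also takes in Slc6a2, Slc6a3 and Slc6a4, which carry monoamines, Slc6a8, which carries creatine, and Slc43a3, a nucleobase transporter.

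C2C12 is an immortalised mouse myoblast line. The WT group was this line with genotype WT, and the KO group was a Gne-KO line made from it with CRISPR-Cas9, in which an indel in exon 2 gives an early stop in Gne, the enzyme that starts sialic acid synthesis. The methods describe KO cells as clones expanded from single cells, so effects of the edit and differences particular to a clone cannot be told apart. Both lines were grown in DMEM with fetal bovine serum and gentamicin, with no other treatment in the labels. The data are 1 library of RNA per line, so no difference below has a replicate check, and no p-value can be given. All comparisons are between 2 libraries.

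Cells take up amino acids through systems that differ in substrate and in coupling. Sodium-coupled carriers of the SLC38 family concentrate glutamine, alanine and serine inside the cell. The exchanger of Slc7a5 with its heavy chain Slc3a2 then trades such amino acids for leucine and other large neutral ones. Leucine and arginine in the cytosol and lysosome are signals for mTORC1, the kinase complex that promotes growth and restrains autophagy, and the transcription factor ATF4 raises several transporter genes when amino acids are scarce.

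The files name no unit, and the values, 1 per gene and library, are treated as FPKM, which scales fragments by transcript length and by depth. The methods name TPM and expected counts but not FPKM. With TPM, each KO to WT ratio would differ from the one given here by at most 1 factor shared by every gene. Differences are given as log2((KO + 1)/(WT + 1)), on which low genes appear to change less than they do, and 10542 genes whose mean over both libraries reached 1 FPKM were compared. Low values of many genes with 1 coding transcript lay near a step taken as 1 fragment. This held for 60 of 135 such genes in WT and 79 of 151 in KO. The step was set from the peak of these same genes, so the counts are no check of it. Fragments behind the transporters past this filter were estimated from this step, if the unit is FPKM. With the longest transcript of each, they ran from 239 (Slc38a9 in KO) to 28283 (Slc38a2 in WT). With the shortest transcript, the lowest estimate was 11.5 (Slc6a9 in KO). Gne itself had 6.67 FPKM in WT and 7.34 FPKM in KO, and because a small indel need not change the amount of RNA, these values do not check which library carries the edit. The libraries differed in markers of the myoblast state. The 8 markers listed for myoblasts summed to 199 FPKM in WT and 25.8 FPKM in KO, with Pax7 at 0 in both. Of the 5 past the filter, 4 were more than 2-fold lower in KO, Myod1 (59.97 FPKM and listed at 0), Des (97.6 and 3.84), Cdh15 (16.6 and 0.701) and Chrna1 (15.3 and 0.917), while Myf5 was more than 2-fold higher, at 9.14 and 20.3 FPKM. Of all genes compared, 3.43% were more than 2-fold lower and 2.84% higher. The 6 fibroblast markers summed to 368 and 807 FPKM. Col3a1 made most of the WT sum, at 347 FPKM in WT and 520 FPKM in KO, a log2 difference of 0.58. Of the 3 past the filter, 1, Col1a1, was more than 2-fold higher, at 9.66 and 273 FPKM. Pdgfra was at 10.8 and 12.3 FPKM, Dcn, under the filter, at 0.272 and 1.68 FPKM, and Thy1 and Lum at 0 in both. The lists for epithelial and endothelial cells summed to 0.051 FPKM or less in either library, and that for macrophages to 2.90 and 1.14 FPKM. The part of these marker differences in any transporter result was not tested. In bulk RNA, fewer cells of a type and less RNA per cell cannot be told apart.

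Of the 60 transporter genes, 23 passed the filter of a mean of at least 1 FPKM, 22 were at 0 in both libraries and 15 lay between. None of the 23 was more than 2-fold higher in KO, where 2.84% of all genes compared were, and 1, Slc38a7, was more than 2-fold lower, a share of 4.35% beside 3.43% of all genes. In 9 of the 23 the KO value was above that of WT, which is 39.1% beside 50.7% of all genes, and in 14 it was below. The median log2 difference was -0.08 for the 23 genes and 0.0061 for all genes. Beyond 1.5-fold in either direction were 4 of the 23, or 17.4%, beside 15.2% of all genes. The interquartile range of all genes ran from -0.21 to 0.23, and 12 of the 23 transporters lay outside it, 7 below and 5 above.

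The background moves with the settings, and the members' counts under each are these. With KO scaled by the median of ratios, 0 transporters were more than 2-fold higher and 1 lower, beside 2.82% and 3.47% of all genes. With a pseudocount of 0.1 the counts were again 0 and 1, beside 3.89% and 4.47%, and with a pseudocount of 5 they were 0 and 1, beside 0.968% and 1.67%. With the filter raised to 5 FPKM they were 0 and 1, beside 1.69% and 2.58%. With no filter they were 0 and 2 of 60, beside 1.53% and 1.79%. With the rows of a repeated symbol summed they were 0 and 1, beside 2.84% and 3.43%.

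**Figure D1:**
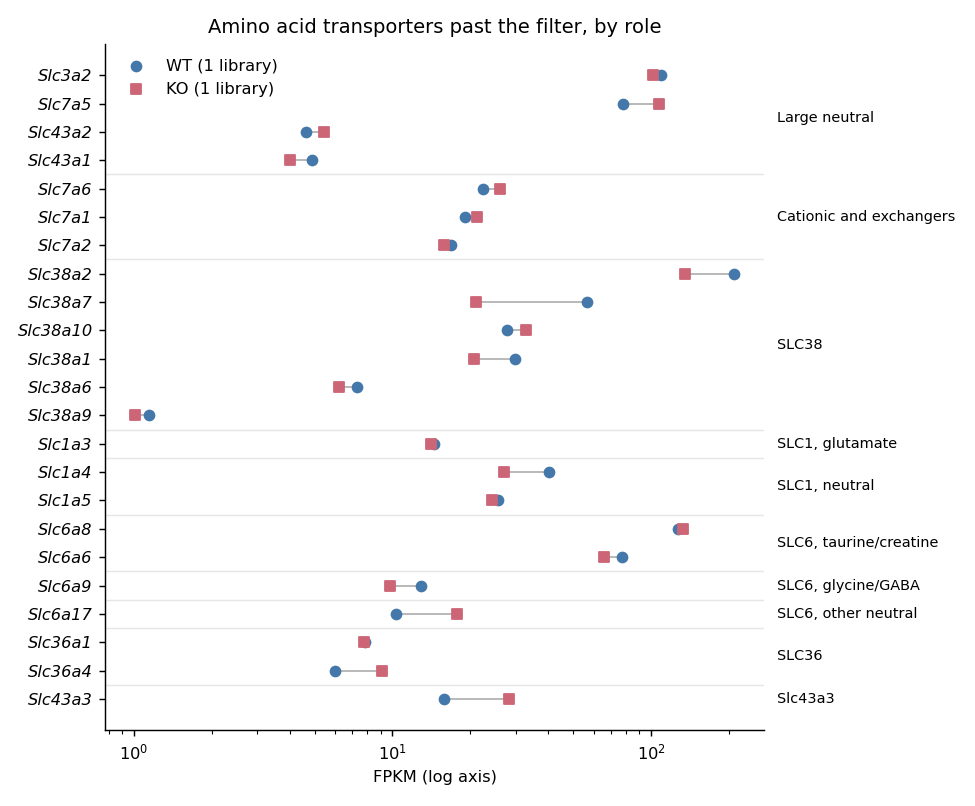
FPKM of the 23 transporters past the filter in the WT library (circles) and the KO library (squares), on a log axis, grouped by role, with 1 library per line. The longest line joins the 2 values of Slc38a7, 56.3 and 21.0 FPKM, and Slc38a2 is the highest in both libraries.

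The 5 highest transporters were the same genes in both libraries, Slc38a2, Slc6a8, Slc3a2, Slc7a5 and Slc6a6, and together they made 64.7% of the summed FPKM of all 60 genes in WT and 64.9% in KO. All 60 genes summed to 928 FPKM in WT and 837 FPKM in KO, a ratio of 0.903, beside 1.01 for all genes. In absolute FPKM, the sums by role differed most in the SLC38 family. By ratio, Slc43a3 (15.9 and 28.2 FPKM) and the 8 other neutral SLC6 genes (10.9 and 17.9 FPKM) differed more. Of those 8 genes, Slc6a17 alone made 10.3 and 17.7 FPKM, and 5 were at 0 in both libraries. The 11 SLC38 genes summed to 332 FPKM in WT and 217 FPKM in KO, and their share of the transporter sum was 35.7% in WT and 25.9% in KO. Slc38a2 made 209 and 135 FPKM of these sums, Slc38a7 56.3 and 21.0, and Slc38a1 29.9 and 20.7. Slc38a10 was higher in KO, at 27.8 and 32.9 FPKM. The 5 large neutral amino acid genes summed to 196 and 219 FPKM, or 21.2% and 26.1% of the transporter sum. Of this, 109 and 102 FPKM came from Slc3a2, a heavy chain that also serves Slc7a6 of another group. In WT the SLC38 family was the group with the highest sum, and in KO it was level with the large neutral group, 217 beside 219 FPKM.

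**Figure D2:**
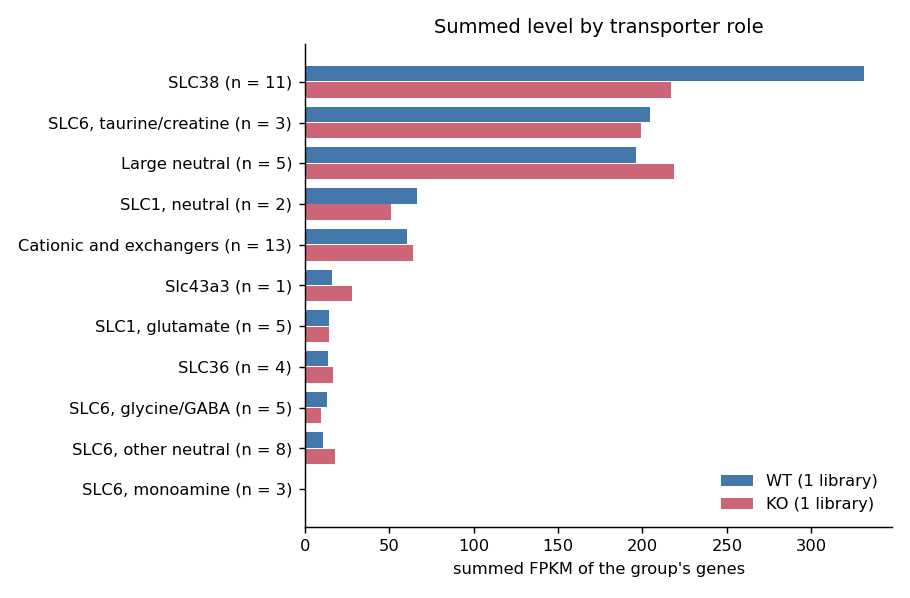
Summed FPKM of the 60 transporters by role in the WT and KO libraries, with the number of genes in each group, 1 library per line and no error bars. The SLC38 bars differ most in FPKM, 332 in WT and 217 in KO, and the monoamine group is near 0 in both.

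The SLC38 family holds the sodium-coupled neutral amino acid transporters and some members of lysosomes. Of the 6 SLC38 genes past the filter, 5 were lower in KO and 1 higher, beside 5192 lower of all 10542 genes compared. The median log2 difference of the 6 was -0.36, and Slc38a9, among the 5, was near the filter at -0.09. Genes near Slc38a7, Slc38a2 and Slc38a1 were mostly lower too, as described below. Slc38a2, or SNAT2, which takes up alanine, serine and glutamine and is induced when amino acids are short, was at 209 FPKM in WT and 135 FPKM in KO, a log2 difference of -0.63. Slc38a1, or SNAT1, which takes up glutamine, was at 29.9 and 20.7 FPKM, a log2 difference of -0.51. The values of both were lower in KO by a ratio of 0.646 and 0.692, short of 2-fold, and the genes lie next to each other on chromosome 15, Slc38a1 from 96469298 to 96541851 and Slc38a2 from 96585266 to 96597894 on the minus strand of GRCm39.

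Slc38a7, or SNAT7, which exports glutamine and asparagine from lysosomes, had the largest log2 difference of the 23 transporters past the filter. It fell from 56.3 FPKM in WT to 21.0 FPKM in KO, a log2 difference of -1.38 and a ratio of 0.373, and went from rank 6 to rank 12 among the transporters. Of all genes compared, 2.04% had a log2 difference at or below that of Slc38a7. Slc38a7 occupies positions 96562548 to 96580189 of chromosome 8 (GRCm39, minus strand), beside Got2, the mitochondrial aspartate aminotransferase, which was at 303 and 142 FPKM, a log2 difference of -1.09. Its neighbours are the 42 other genes compared within 5 Mb on either side. Of these neighbours, 38 were lower in KO, beside 5192 of all 10542 genes compared, and 20 were more than 2-fold lower, beside 3.43%. The neighbours' median was -0.97. All but 1 of these neighbours, Got2, lie on the same side of Slc38a7, and the next compared gene past Got2, Cdh11, a cadherin outside this window, was at 0.692 FPKM in WT and 30.7 FPKM in KO. Less this median, the value of Slc38a7 was -0.41, and with each gene treated so, 0 transporters were more than 2-fold higher and 0 lower, beside 2.64% and 2.67% of all genes.

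Other members known from lysosomes, and the rest of both families, had smaller differences. Slc38a9, which senses lysosomal arginine for mTORC1, was the lowest gene past the filter, at 1.14 FPKM in WT and 1.01 FPKM in KO, a mean of 1.08. Slc36a1, or PAT1, which moves amino acids with protons at lysosomes and the cell surface, was at 7.82 and 7.74 FPKM. Slc36a4, a further member of the SLC36 family, was at 5.98 FPKM in WT and 9.09 FPKM in KO, a log2 difference of 0.53, beside a median of 0.33 among its 30 neighbours. Slc38a10 was at 27.8 and 32.9 FPKM and Slc38a6, which overlaps Trmt5 on the opposite strand, at 7.32 and 6.24 FPKM. None of these 5 genes reached 2-fold.

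**Figure D3:**
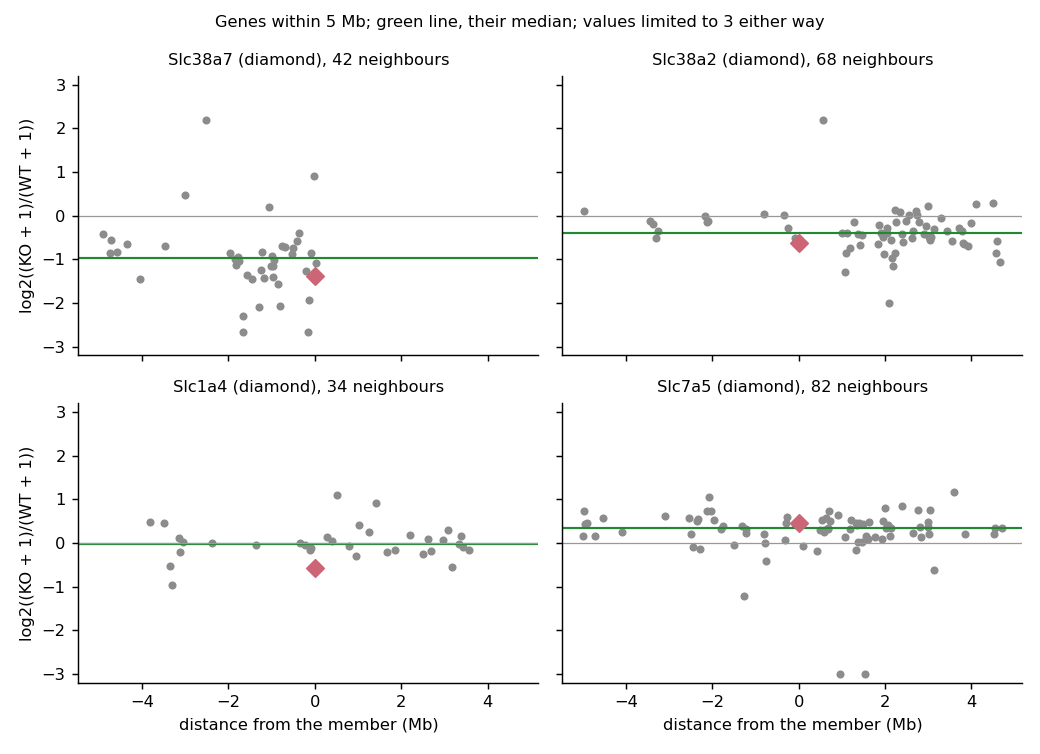
Log2 difference of the genes compared within 5 Mb of Slc38a7, Slc38a2, Slc1a4 and Slc7a5, by distance from the member (diamond), with the median of the neighbours as a green line. The medians are -0.97, -0.39, -0.02 and 0.34, and 2 genes near Slc7a5 that lie beyond -3 are drawn at that limit.

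Several other transporters also had neighbours that differed in the same direction. Slc38a1 and Slc38a2 had 68 neighbours each, with a median of -0.39, and less that median their values were -0.12 and -0.23. Of the 68 neighbours of Slc38a2, 56 were lower in KO, beside 5192 of all 10542 genes compared. Slc7a5 and Slc7a6 lie farther along chromosome 8 than Slc38a7. The 82 neighbours of Slc7a5 had a median of 0.34, and 71 of them were higher in KO, beside 50.7% of all genes. By contrast, the 34 neighbours of Slc1a4 had a median of -0.02, and its own value of -0.57 became -0.55. Slc43a3 and Slc6a17 also kept their values, 0.79 and 0.73 before and 0.81 and 0.70 after the subtraction. The part of gene position in these values was not tested.

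**Figure D4:**
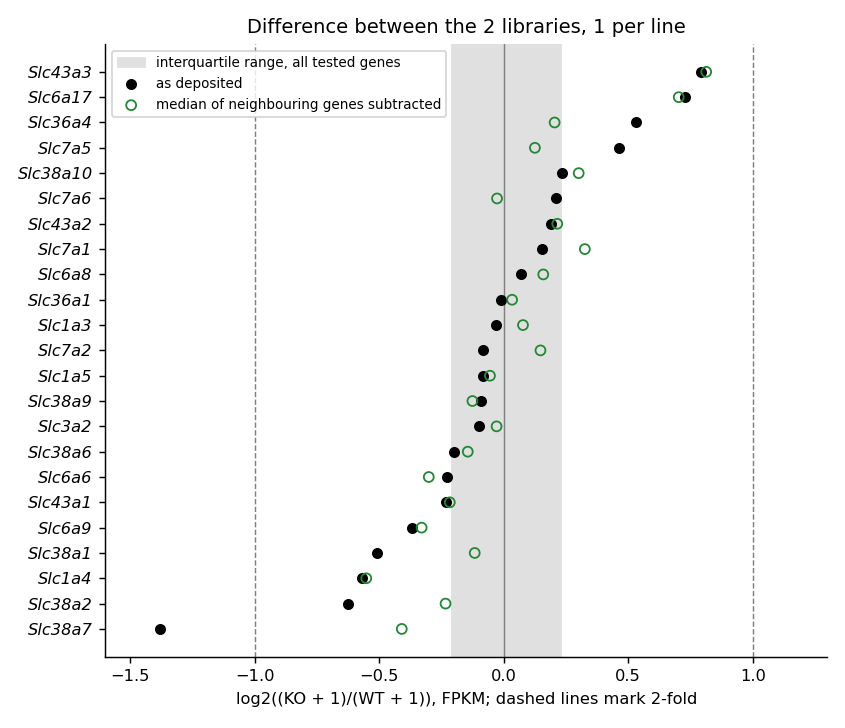
Log2((KO + 1)/(WT + 1)) of the 23 transporters (filled) and the same value after the median of genes within 5 Mb was subtracted (open), with the interquartile range of all genes compared as a grey band and dashed lines at 2-fold. Slc38a7 alone lies past 2-fold as deposited, at -1.38, and moves to -0.41, while Slc1a4, Slc43a3 and Slc6a17 stay in place.

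In the large neutral group, Slc7a5, or LAT1, the leucine exchanger, and Slc3a2, or 4F2hc, the heavy chain that brings it to the cell surface, had differences of opposite sign. Slc7a5 was at 77.7 FPKM in WT and 107 FPKM in KO, a log2 difference of 0.46 and a ratio of 1.38. Slc3a2 was at 109 and 102 FPKM, a log2 difference of -0.10. Slc3a2 serves several light chains, and the 5 listed, Slc7a5, Slc7a6, Slc7a7, Slc7a8 and Slc7a10, summed to 100.4 FPKM in WT and 134 FPKM in KO, of which Slc7a5 made 77.4% and 80.2%. The ratio of Slc3a2 to these light chains, per length, was 1.09 in WT and 0.761 in KO. With Slc7a11, the cystine exchanger that uses the same heavy chain and had 1.22 and 1.46 FPKM, the ratio was 1.07 and 0.753. The heavy chain was thus slightly above the sum of its light chains in WT and below it in KO. These are RNA levels and give no amount of protein. The neighbours of Slc7a5 and Slc7a6 had medians of 0.34 and 0.24, and less these the values of the genes were 0.125 and -0.027. The part of gene position in the ratio was not tested. Slc43a1 and Slc43a2, which carry large neutral amino acids without a heavy chain, were low, at 4.88 and 4.00 FPKM and at 4.64 and 5.44 FPKM. Slc7a8, or LAT2, was at 0 in both libraries.

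The cationic carriers bring in arginine and lysine. Slc7a1, or CAT1, was at 19.0 FPKM in WT and 21.3 FPKM in KO, and Slc7a2, or CAT2, at 16.9 and 15.9 FPKM. Slc7a6, or y+LAT2, which exchanges arginine for glutamine with sodium, was at 22.4 and 26.1 FPKM, a log2 difference of 0.21, beside a median of 0.24 among its neighbours. The KO to WT ratios of the 3 genes were 1.12, 0.942 and 1.16. Slc7a4, whose substrate is not settled, lay just under the filter with a mean of 0.903 FPKM. It was at 1.79 FPKM in WT and 0.018 FPKM in KO, a log2 difference of -1.45 on this scale. If its longest annotated coding transcript of 7174 bases is taken, these values correspond to about 376 and 3.37 fragments, and fewer for shorter transcripts, so the KO value rests on few fragments. Slc7a4 overlaps P2rx6 on the opposite strand, and whether the counting used strand is not stated.

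Among the SLC1 family, Slc1a4, or ASCT1, which exchanges serine, alanine and cysteine, was at 40.5 FPKM in WT and 27.0 FPKM in KO, a log2 difference of -0.57 and a ratio of 0.666. Slc1a5, or ASCT2, a glutamine exchanger, was at 25.7 and 24.2 FPKM. Slc1a3, or GLAST, the glutamate transporter best known from astrocytes, was at 14.5 and 14.1 FPKM and was the one glutamate carrier of its family past the filter. Slc1a1, Slc1a2 and Slc1a6 were at or below 0.094 FPKM, and Slc1a7 was at 0. Slc1a4 was thus the SLC1 gene in which the libraries differed most. On GRCm39 it spans 20252180 to 20282774 of chromosome 11, minus strand.

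Several members are known targets of ATF4, which binds as a dimer with C/EBP proteins to the element TGATGNAA. RefSeq promoters of GRCm38.p6, from 250 bases before to 50 after the start, were searched for this element on both strands, and are printed here for 3 members known as ATF4 targets. Of 27025 symbols with a promoter, 4.51% held the element, as did 2.48% of the 8379 compared genes that had one. It was present in 3 of 42 transporters with a promoter, Slc1a4, Slc7a7 and Slc6a21, and in 1 of the 16 that also passed the filter, Slc1a4. In Slc1a4 it lies on the opposite strand over the start itself, with its first base in the gene's direction at -4. The stretches run 5′ to 3′ in the gene's direction and end at the start, or 4 bases past it for Slc1a4, and capitals mark the element.
Slc1a4 promoter, chr11:20332710-20332963, minus strand, GRCm38.p6: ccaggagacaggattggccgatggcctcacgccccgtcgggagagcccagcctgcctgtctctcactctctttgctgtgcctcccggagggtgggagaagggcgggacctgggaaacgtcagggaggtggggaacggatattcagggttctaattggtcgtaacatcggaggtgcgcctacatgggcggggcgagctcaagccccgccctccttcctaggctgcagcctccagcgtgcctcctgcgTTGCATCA
Slc38a2 promoter, chr15:96699729-96699978, minus strand, GRCm38.p6: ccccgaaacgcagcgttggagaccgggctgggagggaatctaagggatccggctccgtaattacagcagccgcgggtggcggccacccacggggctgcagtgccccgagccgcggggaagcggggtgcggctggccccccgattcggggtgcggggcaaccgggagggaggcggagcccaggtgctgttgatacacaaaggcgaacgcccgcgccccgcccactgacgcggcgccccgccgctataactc
Slc3a2 promoter, chr19:8713898-8714147, minus strand, GRCm38.p6: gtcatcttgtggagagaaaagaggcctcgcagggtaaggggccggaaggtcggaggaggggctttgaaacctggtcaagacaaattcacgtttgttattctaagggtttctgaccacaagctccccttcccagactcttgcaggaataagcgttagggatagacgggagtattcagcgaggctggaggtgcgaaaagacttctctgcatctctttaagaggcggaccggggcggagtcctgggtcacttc

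The stretches of Slc38a2 and Slc3a2 hold no match in this window. Slc7a1 and Slc6a9 had none either. The search covered these 5 of the 8 listed targets, Slc1a4 included, and not Slc7a5, Slc7a3 and Slc1a5, for which no promoter was used here. Sequence outside the window was not searched, so an element elsewhere in a gene would be missed.

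Of the 8 members listed as ATF4 targets, 7 passed the filter. Beyond 2-fold were 0 of them, beside 2.84% of all genes higher and 3.43% lower. In KO 5 of the 7 were lower and 2 higher, beside 5192 lower of all 10542 genes compared. Among the 5, Slc3a2 and Slc1a5 were at -0.10 and -0.08. The median log2 difference of the 7 was -0.10. The 7 ranged from -0.63 for Slc38a2, whose neighbours had a median of -0.39, to 0.46 for Slc7a5, whose neighbours had 0.34. Besides those described, Slc6a9, or GLYT1, the glycine transporter, was at 12.9 FPKM in WT and 9.75 FPKM in KO, a log2 difference of -0.37, and it overlaps B4galt2 and Ccdc24 on the opposite strand. Slc7a3 was at 0.119 and 0.05 FPKM. Atf4 RNA was at 413 FPKM in WT and 282 FPKM in KO, a log2 difference of -0.55, and the median of its neighbours was -0.38. ATF4 is controlled largely at translation, so its RNA is no measure of its activity.

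Of 25 genes listed as part of the amino acid response, 22 passed the filter, 11 were higher and 11 lower in KO, and the median was 0.0073. Beyond 2-fold were 1 higher and 1 lower of the 22, beside 2.84% and 3.43% of all genes. More than 2-fold higher was 1 gene, Cth, which makes cysteine from cystathionine, at 1.32 FPKM in WT and 4.45 FPKM in KO. More than 2-fold lower was Gpt2, the mitochondrial alanine transaminase, at 29.1 and 9.68 FPKM, a log2 difference of -1.49, beside a median of -1.45 among its neighbours. Asns, which makes asparagine, was at 99.9 and 77.1 FPKM, and Phgdh, the first enzyme of serine synthesis, at 177 and 194 FPKM. Asns and Phgdh are named as examples chosen after their values were seen.

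**Figure D5:**
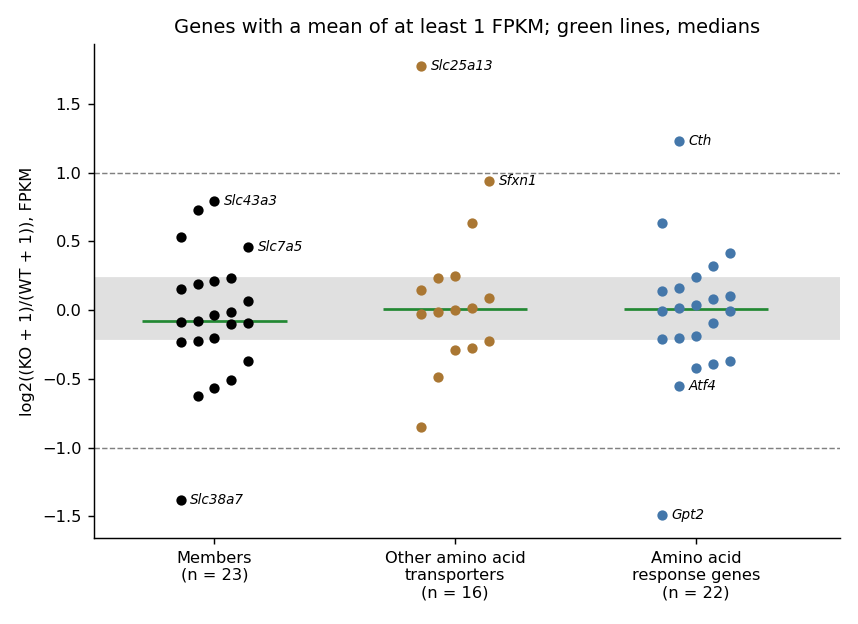
Log2((KO + 1)/(WT + 1)) of the 23 transporters, of 16 other amino acid transporters and of 22 amino acid response genes past the filter, with medians as green lines, the interquartile range of all genes as a grey band and dashed lines at 2-fold. The medians are -0.08, 0.0093 and 0.0073, and 1 or 2 genes of each set lie past 2-fold.

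The SLC6 family carries neurotransmitters, taurine, creatine and neutral amino acids. Slc6a8, the creatine transporter of muscle, was at 127 FPKM in WT and 133 FPKM in KO, and Slc6a6, the taurine transporter, at 77.2 and 65.8 FPKM. Their log2 differences were 0.07 and -0.23. Slc6a17, a neutral amino acid transporter of synaptic vesicles, was at 10.3 and 17.7 FPKM, a log2 difference of 0.73. The SLC6 genes under the filter were at low values or at 0. Slc6a2, the noradrenaline transporter, was at 0.535 and 0.588 FPKM, and Slc6a7, the proline transporter, at 0.562 and 0.197 FPKM. Slc6a11 and Slc6a19 were at or below 0.036 FPKM. At 0 in both libraries were the glycine, betaine and GABA carriers Slc6a5, Slc6a12 and Slc6a13, the dopamine and serotonin carriers Slc6a3 and Slc6a4, and Slc6a14, Slc6a15, Slc6a16, Slc6a18 and Slc6a21.

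Slc43a3, the nucleobase carrier, had the largest log2 difference above 0, at 15.9 FPKM in WT and 28.2 FPKM in KO, a log2 difference of 0.79 and a ratio of 1.78. It lies on chromosome 2 from 84766862 to 84788865 of GRCm39, next to Slc43a1, whose log2 difference was -0.23. The 2 neighbours by position and family thus differed in opposite directions.

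The other members under the filter are named for completeness. Slc36a3, Slc38a3, Slc38a4, Slc3a1 and Slc7a14 were at or below 0.067 FPKM in both libraries, and Slc7a7 at 0.261 and 0.391 FPKM. Slc36a2, Slc38a5, Slc38a8, Slc38a11, Slc7a9, Slc7a10, Slc7a12, Slc7a13 and Slc7a15 were at 0 in both. These include the partners Slc3a1 and Slc7a9, the cystine carrier of kidney.

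Of 27 other amino acid and peptide transporters in the files, 16 passed the filter, with a median of 0.0093. Among the 16, 1 was more than 2-fold higher and 0 lower, beside 2.84% and 3.43% of all genes. The 1 was Slc25a13, a mitochondrial aspartate and glutamate carrier, listed at 0 in WT and at 2.42 FPKM in KO. Arl6ip5, an inhibitor of the glutamate carrier Slc1a1, was the highest, at 191 and 164 FPKM. Sfxn1, the mitochondrial serine transporter, was short of 2-fold at 29.4 and 57.4 FPKM, and Slc25a29, which carries cationic amino acids into mitochondria, was at 8.06 and 4.02 FPKM. Both of these are named after their values were seen. Among 122 further solute carriers past the filter, a set that includes several of these, 6 were more than 2-fold higher and 3 lower, and the median was 0.04.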

How the data were processed

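RNA was sequenced from 1 WT and 1 KO library of C2C12 cells. The deposited tables, made by the authors, were taken as FPKM. The column totals, 568543 and 574253, differ. Low values fell with transcript length, with a Spearman correlation across genes of -0.379 in WT and -0.388 in KO. Both could also hold for TPM limited to the listed genes, so the unit is an assumption. The methods name TrimGalore, STAR on GRCm39 and RSEM, while the submitters' processing notes list GRCm38, GRCh38, Trim Galore 0.6.6, STAR 2.7.9a and RSEM 1.3.3, and both also differ on the library kit and sequencer. Which tool wrote these values is not given in the sources used here.

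Among 21853 rows, 24 repeat a symbol already listed; the one with the higher mean was used. No test was run with 1 library per line. Fragments were estimated from the step of low values in each library, with 200 bases, an assumed fragment length, taken off each transcript. Positions came from GENCODE vM39 on GRCm39, by symbol for 19280 genes and through older symbols for 377, and promoters from RefSeq on GRCm38.p6.

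Members and lists were chosen with earlier results of these data known. Transporters past the filter are named with both values, others with values or an upper bound, and from the transporter, response and marker lists the genes past the filter and beyond 2-fold, from the first 2 of these also the highest gene, and Slc7a11. The fibroblast markers are all named. Further solute carriers are given as counts. A few items, 1 transporter counted among the members included, are not reported here by name. Scripts used Python (3.11.15) with pandas 2.3.3, numpy 2.4.6, matplotlib 3.10.9 and scipy 1.17.1, and were tested on simulated data.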

Additional observations from a re-analysis of the deposited data

How the results depend on the processing

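Without a filter, 2 of the 60 transporters were more than 2-fold lower, Slc38a7 and Slc7a4, and with the median of neighbouring genes subtracted there were 0. The count was 1 with median-of-ratios scaling, with a pseudocount of 0.1 or 5, with a mean of at least 5 FPKM and with repeated rows summed, and 0 were more than 2-fold higher under each alternative run. The median log2 difference lay between -0.09 and 0. The 0 came from the setting with no filter, where 22 of the 60 genes were at 0 in both libraries. With neighbours subtracted 4 transporters changed sign, Slc1a3, Slc36a1, Slc7a2 and Slc7a6. The scaling factor was 0.995.

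With 1 library in each line no replicate was left out, and TMM and DESeq2 scaling were not run because the values are not counts. No paired analysis was possible because there is 1 library in each group and nothing was tested. Values near 0 rest on few fragments.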
